A study of Mus musculus with 15 samples.

Results

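Mitochondrial genome transcripts are the RNAs made from the small circular genome inside mitochondria. They were taken as every gene of the deposited FPKM table whose name starts with mt-, which gave 37 of 32479 genes, namely 13 mRNAs, 2 rRNAs and 22 tRNAs. The 15 libraries came from mouse submandibular glands, which make saliva, with 5 libraries per group. SJQYD glands came from NOD/LTJ mice treated with SJQYD, an agent for which the labels use the abbreviation alone. Model glands came from NOD/LTJ mice without treatment, an inbred strain prone to autoimmune inflammation of salivary glands. Control glands came from ICR mice, an outbred stock, also without treatment. The genotype of all 3 groups is labelled WT, and the labels give no age, sex, dose or duration. Model and control glands differ in strain and disease, and SJQYD and control glands in strain, disease and treatment, which cannot be told apart in these comparisons. It is not stated that samples came from separate mice, so that p-values measure the spread between these samples.

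The mitochondrial genome is read from both strands as long precursor RNAs. Most mRNAs lie on 1 strand (plus in the annotation) with tRNAs between them, and excision of the tRNAs frees the mRNAs and rRNAs. The mRNAs encode core subunits of respiratory complexes I, III and IV and of the ATP synthase, complex V, while all other subunits are made from nuclear genes. Ducts of salivary glands that pump salt, above all striated ducts, are rich in mitochondria. The libraries were selected with oligo-dT, which binds the poly(A) tails of mRNAs. Mature tRNAs carry no such tail.

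All 37 genes stood at the same positions as in the GENCODE M21 annotation of GRCm38, the build used for coordinates. The tRNAs fell into very unequal groups by strand. The 8 tRNAs on the minus strand took 95.8 to 96.6% of all tRNA counts in SJQYD libraries, 95.2 to 95.7% in model libraries and 95.2 to 96.2% in control libraries. Of the 14 plus-strand tRNAs, 10 held between 0 and 10 counts in every library and did not pass the filter on low counts, which left 27 members for testing. These 10 were mt-Tf, mt-Tv, mt-Td, mt-Tk, mt-Tg, mt-Tr, mt-Th, mt-Ts2, mt-Tl2 and mt-Tt, and 4 of them had a count of 0 in at least 1 library. The sequences below are those of the tRNAs on which the results turn, from the GENCODE transcripts, written 5′ to 3′ on the strand of the gene with the anticodon in capitals. The cluster of tRNAs for alanine, asparagine, cysteine and tyrosine (mt-Ta, mt-Tn, mt-Tc and mt-Ty) lies at MT:5018-5326 on the minus strand, opposite no annotated plus-strand gene. The serine tRNA mt-Ts1 (MT:6870-6938, minus) overlaps the last 3 bases of mt-Co1 on the opposite strand, and the glutamate tRNA mt-Te (MT:14071-14139, minus) lies beside mt-Nd6. The aspartate tRNA mt-Td (MT:6942-7011, plus), between mt-Ts1 and mt-Co2, is shown as an example of the plus-strand tRNAs that were all but absent.
mt-Ta: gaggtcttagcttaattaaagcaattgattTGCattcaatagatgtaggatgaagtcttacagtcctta
mt-Tn: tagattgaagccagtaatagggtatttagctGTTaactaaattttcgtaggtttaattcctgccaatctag
mt-Tc: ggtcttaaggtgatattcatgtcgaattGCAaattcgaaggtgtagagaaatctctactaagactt
mt-Ty: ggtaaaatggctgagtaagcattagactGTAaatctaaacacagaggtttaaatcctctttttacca
mt-Ts1: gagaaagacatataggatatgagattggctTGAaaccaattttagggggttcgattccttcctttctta
mt-Te: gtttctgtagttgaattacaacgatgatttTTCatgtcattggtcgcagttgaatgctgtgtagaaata
mt-Td: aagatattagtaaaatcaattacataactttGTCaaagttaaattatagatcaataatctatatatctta

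The counts of these neighbours differed by orders of magnitude. mt-Td had 3, 3, 3, 3 and 2 counts in SJQYD libraries, 3, 5, 3, 6 and 2 in model libraries and 1, 2, 4, 2 and 2 in control libraries. mt-Ts1, which starts 3 bases away, had 8159, 4355, 4138, 4452 and 4808 counts in SJQYD libraries, 4560, 5572, 3912, 4440 and 3983 in model libraries and 2115, 2459, 2632, 2867 and 2474 in control libraries. In human cells the mRNAs of the genes corresponding to mt-Co1 and mt-Nd5 run on past their coding parts, opposite to the serine tRNA and to the genes of ND6 and the glutamate tRNA. The kit marks strand, but the strand setting used for counting is not given in the sources used here, so that reads of mt-Ts1, mt-Te or mt-Nd6 and of RNA from the opposite strand cannot be told apart. A count on a tRNA gene is therefore given as a count at that position and not as mature tRNA.

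Some members have near-identical copies in the nuclear genome. A search of the annotated transcripts found 22 nuclear genes with sequence like a member, of which 7 had a count of 0 in every library and 4 had at most 9 counts. On chromosome 1, 7 genes on the minus strand at 1:24611535-24616197 were over 99% identical to MT:6390-11042, a stretch of 4653 bases that holds 11 members whole and 2 in part. For 5 of the 7, the count was 0.985 to 1.01 times that of the member in every library. Gm10925, the copy of mt-Atp6, had 115928, 70890, 85022, 83330 and 113691 counts in SJQYD libraries, 122973, 163572, 80982, 131156 and 103948 in model libraries and 65283, 64186, 82753, 109802 and 89017 in control libraries. mt-Atp6 itself had 115694, 70515, 84791, 83511 and 112935 counts in SJQYD libraries, 122706, 163171, 81138, 130130 and 103451 in model libraries and 64913, 64075, 82297, 108397 and 87957 in control libraries. Gm28661 (mt-Co2), Gm28437 (mt-Co3), Gm10222 (mt-Nd4l) and Gm28438 (mt-Nd3) stood as close to their members, with 57220 to 141792, 62989 to 140496, 473 to 3642 and 13320 to 35449 counts over all libraries.

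The exceptions were partial copies, of the first 63.6% of mt-Nd4 and of the last 31.3% of mt-Co1. The shorter match held the larger fraction of its member's count. Gm28439, identical to mt-Nd4 over 876 bases, held 2500 to 17808 counts, 0.0561 to 0.179 times the count of mt-Nd4. Gm29216, with 1 mismatch in 483 bases of mt-Co1, held 44900 to 149866 counts, 0.306 to 0.607 times the count of mt-Co1. Copies on chromosome 2 with more differences held few counts, 80 to 217 for Gm13340 (mt-Co1), 76 to 261 for Gm13339 (mt-Nd2) and 105 to 235 for Gm13341 (mt-Co2). Cep295 matched mt-Ty over 57 bases at 89.5% identity and had 223 to 523 counts. mt-Ts1 lies inside the stretch copied on chromosome 1, and mt-Co1 and mt-Nd4 lie partly inside. The search found no annotated nuclear gene like mt-Ts1, and whether its reads also matched chromosome 1 was not tested. Whether reads of mt-Atp6, mt-Co2, mt-Co3, mt-Nd3 and mt-Nd4l were counted at both places or divided between them cannot be told apart. The case of mt-Nd3, a complex I subunit, shows how little separates the places. Gm28438 differs from it at 1 base of 345, T3C counted from the start of mt-Nd3 (MT:9459-9481, plus, and 1:24613097-24613119, minus, with the differing base in capitals).
mt-Nd3: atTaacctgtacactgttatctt
Gm28438: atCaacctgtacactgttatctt

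**Figure D1:**
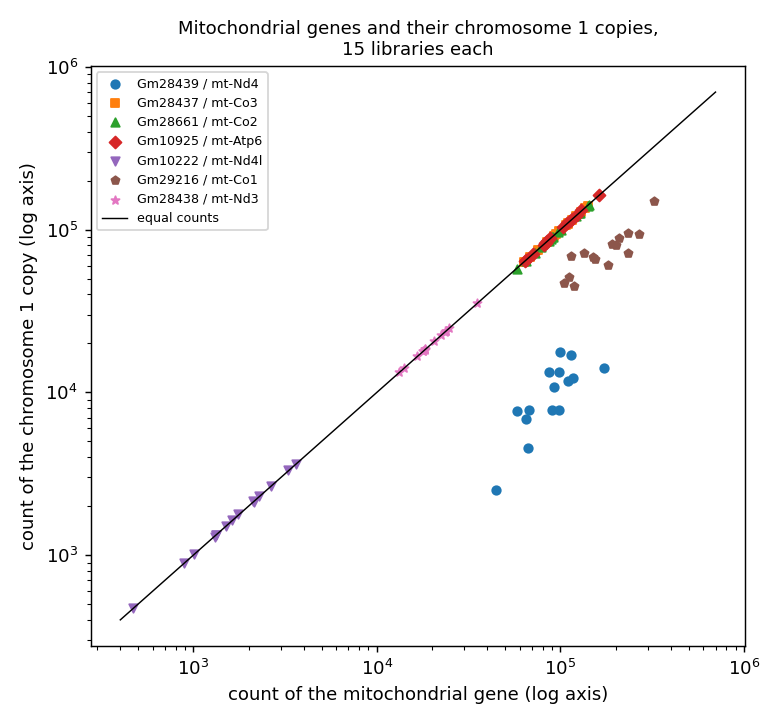
Count of each of 7 chromosome 1 copies (vertical, log axis) against the count of the mitochondrial gene it resembles (horizontal, log axis), with 1 point per library and a line of equal counts. Copies of mt-Atp6, mt-Co2, mt-Co3, mt-Nd3 and mt-Nd4l lie on the line, and those of mt-Co1 and mt-Nd4 lie below it.

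Levels were compared between genes per length, as FPKM. The libraries were selected with oligo-dT, so that FPKM of rRNAs beside mRNAs need not reflect their amounts in the gland. In the mean over all 15 libraries the order of the 13 mRNAs and 2 rRNAs was led by mt-Co2 (2140 FPKM ± 557, SD, n = 15), mt-Atp6 (2125 ± 544), mt-Co3 (1953 ± 472) and mt-Co1 (1729 ± 571). These are 3 core subunits of cytochrome c oxidase (complex IV) and a subunit of the proton channel of ATP synthase. mt-Co2 was above mt-Atp6 in 8 of 15 libraries and mt-Atp6 above mt-Co3 in 11, so that their order was not fixed. mt-Co2, mt-Atp6, mt-Co3, mt-Nd3 and mt-Nd4l have chromosome 1 copies with about the same counts. Whether their reads were divided cannot be told, so their place beside genes without such copies is uncertain. mt-Cytb, the complex III subunit cytochrome b (1510 ± 337), stood above mt-Nd1 (1152 ± 292) in all 15 libraries. mt-Nd4 (974 ± 298), mt-Nd3 (876 ± 241), mt-Nd2 (656 ± 145) and mt-Nd6 (637 ± 197), subunits of complex I, came next. mt-Atp8 (454 ± 166) and the rRNAs mt-Rnr1 (415 ± 190), of the small ribosomal subunit, and mt-Rnr2 (315 ± 163), of the large, followed in this pooled mean. Their place differed between groups, as mt-Rnr1 averaged 576 FPKM in SJQYD, 417 in model and 253 in control libraries, and mt-Atp8 375 in SJQYD, 481 in model and 504.5 in control libraries. In SJQYD 1 and SJQYD 2 mt-Rnr1 (862 and 685 FPKM) was above mt-Nd2 (603 and 498). mt-Nd5 (113 ± 45.1) and mt-Nd4l (88.3 ± 38.7) were lowest.

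Neighbours on the same precursor thus differed widely. mt-Nd4l shares its last 7 bases with mt-Nd4 and mt-Atp8 its last 43 bases with mt-Atp6, and each pair is known to stay on a joint mRNA. Counts of mt-Nd4l were 1.05 to 1.94% of those of mt-Nd4 in SJQYD libraries. They were 1.47 to 2.89% in model libraries and 1.54 to 3.64% in control libraries. Counts of mt-Atp8 were 3.12 to 6.88% of those of mt-Atp6 in SJQYD libraries, 4.56 to 8.79% in model libraries and 5.62 to 10.9% in control libraries. These counts are not scaled by length, and mt-Nd4l (297 bases) and mt-Atp8 (204 bases) are shorter than mt-Nd4 (1378) and mt-Atp6 (681). Per length the gaps were smaller. In the mean over all 15 libraries mt-Nd4l had 88.3 FPKM beside 974 for mt-Nd4, and mt-Atp8 454 beside 2125 for mt-Atp6. Both count ratios were lowest in SJQYD 2 and highest in control 4. Whether coverage along the joint mRNAs differed between libraries was not tested. How reads in an overlap were assigned is not given in the sources used here. The sequences of the shorter gene of each pair are given with the shared bases in capitals (mt-Atp8, MT:7766-7969, plus, and mt-Nd4l, MT:9877-10173, plus).
mt-Atp8: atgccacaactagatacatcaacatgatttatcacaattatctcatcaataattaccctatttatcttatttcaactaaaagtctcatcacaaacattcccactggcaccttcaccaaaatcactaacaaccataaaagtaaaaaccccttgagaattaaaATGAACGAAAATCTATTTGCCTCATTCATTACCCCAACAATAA
mt-Nd4l: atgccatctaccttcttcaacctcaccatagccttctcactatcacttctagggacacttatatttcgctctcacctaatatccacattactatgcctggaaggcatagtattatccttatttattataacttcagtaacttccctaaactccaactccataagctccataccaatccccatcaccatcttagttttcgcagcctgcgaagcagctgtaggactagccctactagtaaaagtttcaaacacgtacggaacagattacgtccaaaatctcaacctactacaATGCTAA

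**Figure D2:**
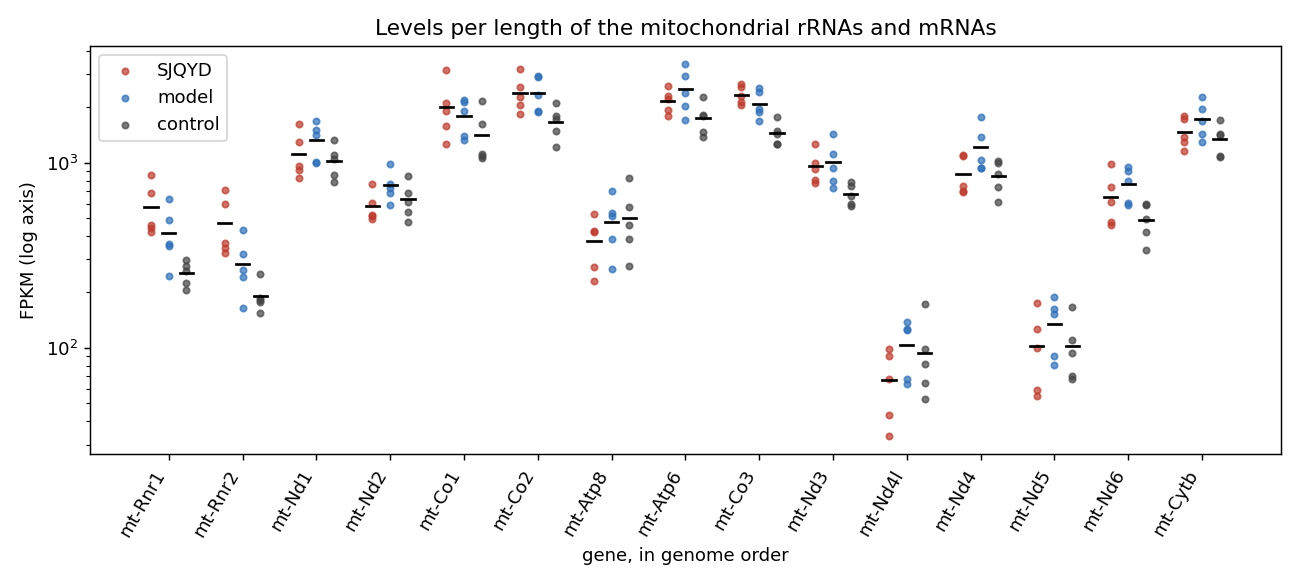
FPKM (log axis) of the mitochondrial rRNAs and mRNAs in genome order, with 1 point per library and a bar at the group mean. mt-Co1, mt-Co2, mt-Atp6 and mt-Co3 are the highest and mt-Nd4l and mt-Nd5 the lowest. FPKM are as deposited, with no allowance for chromosome 1 copies.

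As a whole, the 37 genes took 2.36, 1.65, 1.55, 1.37 and 1.86% of all counts in SJQYD libraries 1 to 5. They took 2.07, 2.33, 1.40, 1.79 and 1.503% in model libraries and 1.04, 1.12, 1.36, 1.69 and 1.37% in control libraries. The means were 1.76% ± 0.380 in SJQYD, 1.82% ± 0.390 in model and 1.32% ± 0.257 in control glands (SD, n = 5 each), and all groups overlapped. This order depends on what the members are set against. The secretory transcript Mucl2 alone held 15.5 to 46.4% of all counts in SJQYD libraries, 25.8 to 45.6% in model libraries and 42.2 to 53.8% in control libraries. After TMM scaling, which aligns the bulk of genes between libraries, the summed members averaged 15099 ± 3006 CPM in SJQYD, 16460.5 ± 3415 in model and 16962 ± 3413 in control glands (SD, n = 5 each), again with overlap. In bulk tissue, fewer cells of a type and less RNA per cell cannot be told apart.

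**Figure D3:**
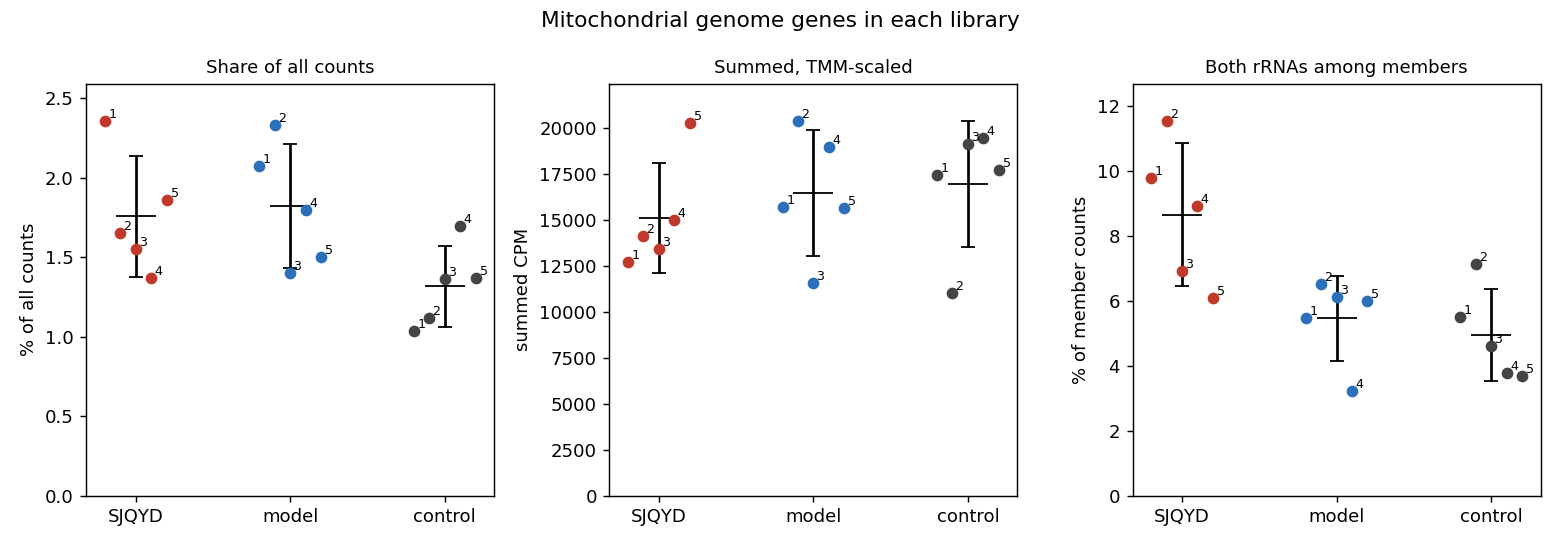
Members as a percentage of all counts, as summed TMM-scaled CPM, and both rRNAs as a percentage of member counts, by group. Points are libraries with their replicate numbers, and bars give the mean and SD (n = 5). The groups overlap in every panel, and the rRNA share is above 6% in every SJQYD library.

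The composition of the libraries varied in other ways. Total counts ran from 39510018 (SJQYD 2) to 68694263 (model 4). Markers fixed for the submandibular acinus, 7 of 7 with counts, summed to 85916 to 511087 CPM in SJQYD libraries, 215052 to 475819 in model libraries and 419368 to 899576 in control libraries. Markers of striated ducts and ionocytes, 12 of 12 with counts, summed to 2953 to 8452 CPM in SJQYD libraries, 5638 to 8124 in model libraries and 6762 to 17819 in control libraries. Those of the parotid, an adjoining gland, summed to 57075 to 81894 CPM in SJQYD libraries, 59265 to 177610 in model libraries and 69275 to 125382 in control libraries. Of these, 4 genes chosen after their values were seen (Amy1, Bpifa2, Smr3a and Chia1) held 6.50% of all counts in SJQYD 1, 15.99% in model 3 and 4.17% in control 2, against at most 2.11% in every other library. The sum of all 8 parotid markers set only model 3 apart. B cell markers, 8 of 8 with counts, summed to 12.4 to 55.0 CPM in SJQYD libraries, 40.0 to 89.6 in model libraries and 0.271 to 81.0 in control libraries. Skeletal muscle markers, 9 of 10 with counts and Myh1 at 0, did not exceed 38.7 CPM in SJQYD, 38.2 in model and 22.1 in control libraries. Adipocyte markers, 8 of 8 with counts, summed to 308 CPM in SJQYD 5 and 438 in model 2, against at most 34.4 in every other library, and these 2 libraries had the highest summed member CPM of their groups (20253 in SJQYD 5 and 20380.5 in model 2). T cell markers, 8 of 8 with counts, summed to 7.64 to 94.0 CPM in SJQYD libraries, 20.1 to 157 in model libraries and 4.69 to 73.4 in control libraries. Control 2 held the highest B cell and T cell values of its group. Sublingual markers, 7 of 7 with counts, summed to 103 to 5513 CPM in SJQYD libraries, 80.4 to 3498 in model libraries and 117 to 4458 in control libraries. Granular duct markers, 8 of 8 with counts, summed to 4644 to 15616 CPM in SJQYD libraries, 6394 to 11612 in model libraries and 9836 to 27259 in control libraries. Erythrocyte markers, 5 of 5 with counts, summed to 162 to 400.1 CPM in SJQYD libraries, 260.5 to 360.3 in model libraries and 73.9 to 290.0 in control libraries. The part of these cells and tissues in the results below was not tested.

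The comparison of SJQYD with control glands had the only called members. Of 27 tested members 3 rose and 0 fell in the SJQYD glands by edgeR's quasi-likelihood test with Benjamini-Hochberg adjustment over all 18136 tested genes. That is 11.1% of the members, beside 11.1% of all tested genes called in this comparison, so the count itself is no result about the members. The 3 were mt-Ts1, mt-Ty and the large rRNA mt-Rnr2. The median log2 fold change of the 27 was -0.04, beside 0.04 over all tested genes.

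mt-Ts1 had 79.0, 94.4, 64.2, 84.0 and 83.9 CPM in SJQYD libraries, 65.5, 81.3, 54.5, 68.4 and 65.7 in model libraries and 59.2, 44.3, 64.8, 53.8 and 50.9 in control libraries. Of the SJQYD libraries 4 of 5 were above every control library, and SJQYD 3 lay just below control 3. Its log2 fold change between SJQYD and control glands was 0.57 ± 0.13 (SE), adjusted p = 0.0111 by edgeR. It was called under each of the 28 alternative settings run, with adjusted p from 0.000937 to 0.0469. mt-Ts1 lies inside the stretch copied on chromosome 1, and the part of that copy in its counts was not tested.

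mt-Rnr2, the RNA of the large subunit of the mitochondrial ribosome, had 718, 963, 517, 764 and 694 CPM in SJQYD libraries. It had 446, 702, 372, 321 and 517 CPM in model libraries and 543, 458, 473, 387 and 364 in control libraries. SJQYD 3 lay below control 1, while the other SJQYD libraries were above every control library. The log2 fold change between SJQYD and control glands was 0.72 ± 0.21 (SE), adjusted p = 0.0344 by edgeR. The call was lost without SJQYD 1, 2 or 4 or without control 3, 4 or 5 (adjusted p up to 0.0978 by edgeR). It was also lost in edgeR without SJQYD 1, model 3 and control 2 together (0.0606). The same held with the summed member counts as library size (0.121).

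mt-Ty, the tyrosine tRNA gene, had 178, 105, 117, 96 and 102 counts in SJQYD libraries, 105, 180, 73, 165 and 63 in model libraries and 27, 54, 51, 52 and 39 in control libraries. That corresponds to 1.72, 2.28, 1.81, 1.81 and 1.78 CPM in SJQYD libraries, 1.51, 2.63, 1.02, 2.54 and 1.04 in model libraries and 0.755, 0.972, 1.26, 0.976 and 0.802 in control libraries. Every SJQYD library was above every control library, which held for 2 of 27 members (mt-Ty and the isoleucine tRNA mt-Ti) beside 10.1% of all tested genes with no overlap in either direction. The log2 fold change was 0.98 ± 0.29 (SE), adjusted p = 0.0393 by edgeR, and the call was lost in 8 of 15 fits without 1 library (adjusted p up to 0.0921). It was also lost without SJQYD 1, model 3 and control 2 together (0.0594), without the filter on low counts and with the summed member counts as library size.

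The small rRNA mt-Rnr1 had 525, 664, 408, 576 and 537 CPM in SJQYD libraries. It had 413, 626, 338, 289.8 and 419 CPM in model libraries and 416, 328, 409.6, 349 and 290.5 in control libraries. SJQYD 3 lay below control 1 and control 3, and the other 4 SJQYD libraries lay above all controls. Between SJQYD and control glands its log2 fold change was 0.60 ± 0.19 (SE), which missed the threshold (adjusted p = 0.0534 by edgeR). It was called in 3 of 15 fits without 1 library and in 8 of 13 other alternatives, among them DESeq2 (adjusted p = 0.0153) and the edgeR fit of these groups alone (0.0287).

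The mRNAs gave another picture. Of 13 mRNAs, 0 were called in the SJQYD glands against control, and 12 had a negative log2 fold change under TMM scaling. The 13 ranged from -1.03 for mt-Nd4l to 0.15 for mt-Co3. The most negative, mt-Nd4l and mt-Atp8 (-0.95), are each the first gene of a joint mRNA. Whether uneven coverage along these mRNAs had a part in their values was not tested. With the total count as library size 12 of the 27 members were called, beside 25.8% of all tested genes. Among mRNAs the split was then 10 positive and 3 negative at a median of 0.16, but the median over all tested genes then stood at 0.63. All 7 complex I mRNAs were negative against control under TMM scaling, with a median of -0.51. With the total count as library size 5 of the 7 were positive, at a median of 0.05, which was again below the 0.63 of all tested genes.

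Full values show the spread behind this. mt-Nd4l, the smallest of these complex I mRNAs, had 17.0, 10.1, 20.3, 16.7 and 37.1 CPM in SJQYD libraries, 32.7, 38.7, 18.4, 50.8 and 24.9 in model libraries and 37.2, 18.1, 40.1, 67.8 and 43.7 in control libraries. Its log2 fold change was -1.03 ± 0.38 (SE) between SJQYD and control glands (adjusted p = 0.0979 by edgeR), and SJQYD 3 and 5 lay within the control range. It was called by DESeq2 (adjusted p = 0.0207) and by edgeR without SJQYD 5 (0.0330) or without control 2 (0.0378). mt-Atp8, a small subunit of ATP synthase, had 55.5, 47.7, 86.5, 72.6 and 136 CPM in SJQYD libraries, 96.4, 109, 53.2, 176 and 98.0 in model libraries and 152, 64.8, 155, 222 and 176 in control libraries. Its log2 fold change between SJQYD and control glands was -0.95 ± 0.36 (SE) (adjusted p = 0.104 by edgeR). It was called by DESeq2 (adjusted p = 0.0262) and by edgeR without control 2 (0.0333), without SJQYD 5 (0.0449), and at -1.05 without SJQYD 1, model 3 and control 2 together (0.0385).

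Log2 fold changes nearer to 0 were measured for mt-Co1, mt-Cytb and mt-Nd6. mt-Co1, the catalytic subunit of complex IV, had 3118, 2469, 2972, 2552 and 4085 CPM in SJQYD libraries, 2902, 3027, 2099, 4142 and 2534 in model libraries and 3321, 1893, 2758, 4375 and 3736 in control libraries. The ranges covered each other, and the log2 fold change between SJQYD and control glands was -0.08 ± 0.23 (SE) (adjusted p = 0.864 by edgeR). mt-Cytb had 1294, 1505, 1588, 1714 and 2502 CPM in SJQYD libraries, 1972, 2677, 1439, 2366 and 2028 in model libraries and 2384, 1429, 2669, 2583 and 2434 in control libraries. Of the SJQYD libraries 4 of 5 lay below 4 of the 5 controls, with control 2 among the lowest values, and the log2 fold change was -0.42 ± 0.22 (SE) (adjusted p = 0.233 by edgeR). mt-Nd6, the only mRNA of the minus strand, had 325, 251, 321, 313 and 486 CPM in SJQYD libraries, 365, 509.8, 307, 574 and 381 in model libraries and 340.5, 252, 509, 403 and 384 in control libraries. Its log2 fold change was -0.16 ± 0.21 (SE) between SJQYD and control glands (adjusted p = 0.703 by edgeR).

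**Figure D4:**
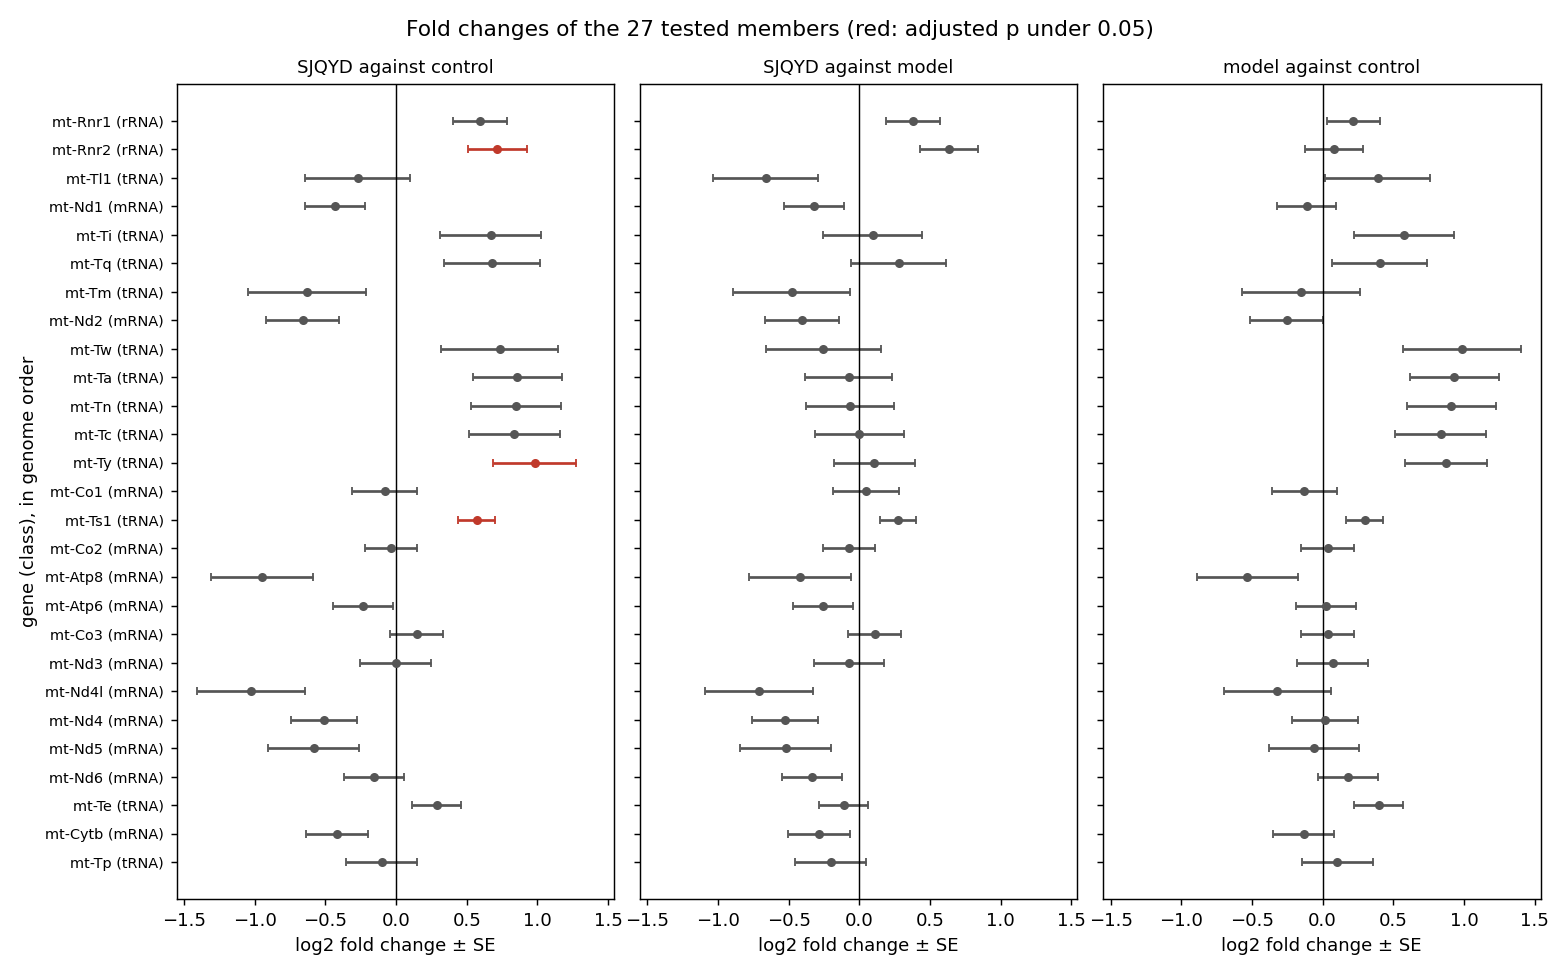
Log2 fold change with its SE for the 27 tested members in genome order, in the 3 comparisons, under TMM scaling. The 3 called members, all in SJQYD against control, are in red (mt-Rnr2 at 0.72, mt-Ty at 0.98 and mt-Ts1 at 0.57).

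The comparison of SJQYD with model glands, the same strain with and without treatment, concerns the treatment. Of 27 tested members 0 were called by edgeR, beside 2.75% of all tested genes (1.91% higher). An unadjusted p under 0.05 was found for 2 of the 27, beside 2936 of all 18136 tested genes. DESeq2 called 1, mt-Rnr2, beside 1058 of all tested genes. Under total count scaling 0 members were called, beside 0.237% of all tested genes. In CPM 0 members were free of overlap between these groups, beside 5.50% of all tested genes. The largest positive log2 fold change among members with at least 5 CPM in either group was that of mt-Rnr2, at 0.63 ± 0.21 (SE) (adjusted p = 0.119 by edgeR), where 3 of 5 SJQYD libraries lay above every model library. The largest negative one was that of mt-Nd4l, at -0.71 ± 0.38 (SE) (adjusted p = 0.395). mt-Nd4, the other member with an unadjusted p under 0.05, stood at -0.52 ± 0.23 (SE) (adjusted p = 0.272). The median of the 27 was -0.11, beside -0.03 over all tested genes. Both rRNAs had a positive and all 7 complex I mRNAs a negative log2 fold change, which held with the total count as library size too. With the summed member counts as library size 1 of the 7 was positive.

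The comparison of model with control glands concerns the strains and the disease together. Of 27 tested members 0 were called by edgeR, beside 5.07% of all tested genes (2.57% higher). An unadjusted p under 0.05 was found for 7 of the 27, beside 3968 of all 18136 tested genes. DESeq2 called 1, mt-Ta, beside 1779 of all tested genes. Under total count scaling 6 members were called, beside 8.62% of all tested genes. In CPM 0 members were free of overlap between these groups, beside 5.77% of all tested genes. The 7 members with an unadjusted p under 0.05 were all tRNA genes, 6 of them on the minus strand. All 8 minus-strand tRNAs had a positive log2 fold change, which held under the 5 other scalings tried. Their median was 0.62, beside 0.03 over all tested genes. Of the 8, mt-Ta, mt-Tn, mt-Tc and mt-Ty lie side by side. Counts of mt-Ta and mt-Tn moved together, with 556 and 676 in model 4 and 48 and 59 in control 1. Whether the same reads were counted at both was not tested, so such neighbours are not independent members. The 13 mRNAs had a median of -0.06.

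mt-Tn, the asparagine tRNA gene, had the largest positive value among members with at least 5 CPM in either group, in model against control and in SJQYD against control glands. It had 4.66, 5.22, 6.20, 5.81 and 4.09 CPM in SJQYD libraries, 4.70, 5.22, 3.33, 10.4 and 3.51 in model libraries and 1.65, 2.45, 5.10, 2.87 and 2.38 in control libraries. Model 4 was far above the other model libraries, and control 3 lay within the model range. The log2 fold change was 0.91 ± 0.32 (SE) between model and control glands (adjusted p = 0.103 by edgeR), and in SJQYD against control glands 0.85 ± 0.32 (SE) (adjusted p = 0.0939). It was called in model against control without control 3. mt-Atp8 had the largest negative value, at -0.53 ± 0.36 (SE) (adjusted p = 0.421 by edgeR).

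**Figure D5:**
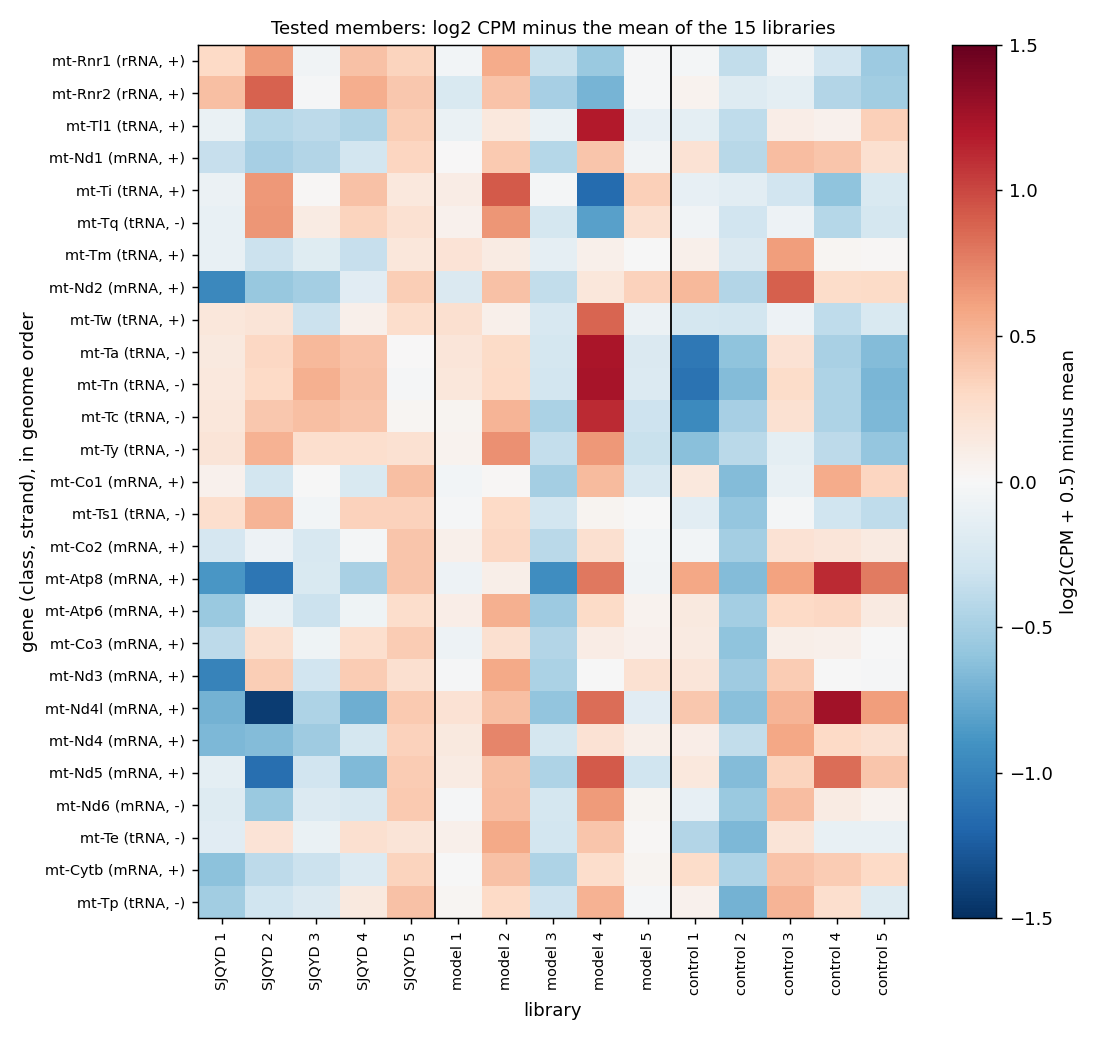
Log2(CPM + 0.5) of each tested member minus its mean over 15 libraries, in genome order (rows, with class and strand) by library (columns). In model 4 the block from mt-Tw to mt-Ty and mt-Tl1 is high while mt-Ti and mt-Tq are low, and in controls 1, 2, 4 and 5 the block from mt-Ta to mt-Ty is low.

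Set against each other, the members do not depend on the scaling of libraries. The rRNAs made up 9.78, 11.5, 6.91, 8.93 and 6.08% of member counts in SJQYD libraries, 5.47, 6.52, 6.12, 3.22 and 5.98% in model libraries and 5.49, 7.11, 4.62, 3.79 and 3.69% in control libraries. The means were 8.64% ± 2.19 in SJQYD, 5.46% ± 1.31 in model and 4.94% ± 1.42 in control glands (SD, n = 5 each). SJQYD 1, 2 and 4 were above all model and control libraries, while SJQYD 3 lay below control 2 alone and SJQYD 5 within the range of both groups. Whether selection with oligo-dT had a part in these rRNA shares was not tested. The ratio between the rRNAs does not depend on scaling either. Counts of mt-Rnr1 were 73.1, 69.0, 79.0, 75.5 and 77.4% of those of mt-Rnr2 in SJQYD libraries, 92.6, 89.2, 91.0, 90.2 and 81.1% in model libraries and 76.5, 71.6, 86.6, 90.2 and 79.8% in control libraries. Every SJQYD library was below every model library in this ratio, and control libraries spanned most of the range of both.

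The tRNA genes took 0.954, 1.05, 0.838, 0.930 and 0.675% of member counts in SJQYD libraries, 0.726, 0.724, 0.787, 0.747 and 0.703% in model libraries and 0.523, 0.662, 0.620, 0.480 and 0.497% in control libraries. All 10 NOD/LTJ libraries were above all 5 ICR libraries, though SJQYD 5 (0.675%) and control 2 (0.662%) lay close together. No background over all tested genes was taken for this share, which was among many library measures compared. Much of this share was 1 position, as mt-Ts1 averaged 5182 of 8368 tRNA counts in SJQYD libraries. In model libraries it averaged 4493 of 8094 and in control libraries 2509 of 4283. Reads at mt-Ts1 and mt-Te cannot be told from RNA of the opposite strand, so the share is not one of mature tRNAs. Among single members, counts over summed member counts did not overlap between SJQYD and control groups for 4 of 27, beside 3.85% of all tested genes measured in the same way. mt-Ts1 and mt-Ty were higher and mt-Cytb and mt-Nd1 lower. Between SJQYD and model groups this held for 1 of 27, beside 1.83%, with mt-Cytb lower. Between model and control groups it held for 1 of 27, beside 2.42%, with mt-Te higher. Members are part of the sum they are divided by and other genes are not, so these shares are not on an equal footing. No excess of members is read from them, here or with that sum as library size. A higher share of 1 member also lowers the shares of others.

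mt-Cytb was 10.2, 10.7, 11.9, 11.4 and 12.4% of member counts in SJQYD libraries, 12.6, 13.1, 12.4, 12.5 and 13.0% in model libraries and 13.7, 12.9, 14.0, 13.3 and 13.7% in control libraries. Every SJQYD library was below every other library, though SJQYD 5 and model 3 differed by less than 0.1 percentage points. mt-Te was 0.158, 0.185, 0.158, 0.179 and 0.129% of member counts in SJQYD libraries, 0.152, 0.166, 0.161, 0.160 and 0.147% in model libraries and 0.0950, 0.128, 0.136, 0.108 and 0.118% in control libraries. Here the 5 model libraries lay close together, all above the controls. With the summed member counts as the library size in edgeR, 1 member was called in SJQYD against control, mt-Ts1 at 0.74 ± 0.19 (SE, adjusted p = 0.0469), beside 1.62% of all tested genes. Under that scaling 0 of 27 members were called in SJQYD against model (beside 0.298% of all tested genes) and 0 in model against control (beside 0.805%).

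Minus-strand members were also set against the gene that ends opposite them. Counts of mt-Nd6 were 161, 247, 176, 222 and 168% of those of mt-Nd5 in SJQYD libraries, 149.7, 166, 191, 136 and 209% in model libraries and 136, 178, 180.5, 100.5 and 128% in control libraries. The groups overlapped, with a mean of 195% ± 37.8 in SJQYD and 145% ± 34.2 in control glands (SD, n = 5 each). Counts of mt-Ts1 were 2.53, 3.82, 2.16, 3.29 and 2.05% of those of mt-Co1 in SJQYD libraries, 2.26, 2.69, 2.60, 1.65 and 2.59% in model libraries and 1.78, 2.34, 2.35, 1.23 and 1.36% in control libraries, also with overlap.

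The respiratory complexes combine mitochondrial and nuclear products, and 74 nuclear genes of complexes I to V were tested. In SJQYD against control glands 18 of the 74 fell and 0 rose, beside 5.90% of all tested genes lower and 5.22% higher, with a median log2 fold change of -0.24. With the total count as library size 18 rose and 1 fell, but that scaling moved all genes up, with 25.8% of them called and a median of 0.63. The list's median of 0.34 was below that of all genes there, as was -0.24 beside 0.04 under TMM scaling. In complex I, 9 of 36 fell. Ndufs5, a complex I subunit, had 11.8 ± 1.78 CPM in SJQYD and 43.5 ± 6.77 in control glands (SD, n = 5 each), which is -1.88 ± 0.14 (SE) on the log2 scale, with adjusted p = 4.25e-07 by edgeR. Ndufv3, Ndufb6 and Ndufb3 followed at -0.59, -0.75 and -0.52. Complex II had 1 called gene, Sdhc at -0.34, and complex III had 2, Uqcrfs1 (the iron-sulfur protein) at -0.68 and Uqcrc2 at -0.59. Of complex IV Cox6a1 (-0.80), Cox7b (-1.10) and Ndufa4 (-0.70) fell, and of complex V Atp5g1 (-1.20), a gene of the c ring of ATP synthase, Atp5a1 (-0.56) and Atp5g3 (-0.67).

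In model against control glands 3 of the 74 fell and 0 rose, beside 2.50% of all tested genes lower. Ndufs5 stood at -1.83, Atp5g1 at -1.16 and Cox6a1 at -0.53. The median of the list was -0.12, beside 0.03 over all tested genes. With the total count as library size 7 rose and 1 fell, at a median of 0.39 beside 0.52 over all tested genes. In SJQYD against model glands 0 of the 74 were called by edgeR and DESeq2 called 2 lower. Ndufs5 had 11.8 ± 1.78 CPM in SJQYD and 12.3 ± 1.79 CPM in model glands (SD, n = 5 each).

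Nuclear genes that make or process mitochondrial RNA were examined beside the members. In SJQYD against control glands Mterf1b, a gene of the mitochondrial transcription termination factor family, rose by 1.14 ± 0.28 on the log2 scale (SE, adjusted p = 0.0143 by edgeR), as 1 of 11 transcription genes. In model against control glands it rose by 1.22 ± 0.28 on the same scale (adjusted p = 0.0191). Of 24 genes of mitochondrial RNA processing and stability, 4 rose and 2 fell in SJQYD against control glands, beside 5.22% of all tested genes higher and 5.90% lower. The median of the list was 0.13, beside 0.04 over all tested genes. Ptcd3 (0.73), a protein of the small mitochondrial ribosomal subunit, rose. Fastk (0.55) and Tbrg4 (0.56), of a family of mitochondrial RNA-binding proteins, rose too, as did Supv3l1 (0.56). Pnpt1 (-0.70), which degrades mitochondrial RNA, and Rexo2 (-0.52) fell. Under total count scaling 11 of the 24 rose and 0 fell, at a median of 0.74 beside 0.63 over all tested genes, of which 25.8% were called. In the other comparisons 0 of the 24 were called by edgeR under TMM scaling.

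Of 12 genes of mitochondrial DNA maintenance, Polg, the DNA polymerase, rose by 0.50 and Rrm2b fell by 0.63 on the log2 scale in SJQYD against control glands. Primpol was at -0.66 in SJQYD against model glands and at 0.51 in model against control glands, comparisons that share the model libraries, with 4.18 ± 0.346 CPM in SJQYD, 6.60 ± 0.620 in model and 4.64 ± 0.437 in control glands (SD, n = 5 each). Tk2 rose by 0.53 and Mgme1 fell by 0.67 on the log2 scale in model against control glands. Of 9 regulators of mitochondrial biogenesis Pprc1, a coactivator, rose by 0.87 on the log2 scale in SJQYD against model and by 0.72 in SJQYD against control glands, and Ppargc1b rose by 1.37 in SJQYD against control glands. Of 18 genes that serve as measures of mitochondrial mass, Cs (citrate synthase) at -0.46, Slc25a5 at -0.76 and Tomm20 at -0.41 fell in SJQYD against control glands, with a median of -0.12 over the list beside 0.04 over all tested genes. Under total count scaling 8 of the 18 rose and 0 fell, at a median of 0.49 beside 0.63 over all tested genes, of which 25.8% were called. In the other comparisons 0 were called by edgeR under TMM scaling.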

How the data were processed

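Submandibular gland RNA was read from oligo-dT selected, strand-marking libraries with UMI adapters, per the labels. The submitters' processing notes list, with no roles, HISAT2 2.0.4 and StringTie 1.3.4d beside cutadapt 1.9, UMI-tools, edgeR and DESeq2. They name the build mm9, while all 37 members stood at GRCm38 positions. The authors deposited a matrix of counts for 55401 genes and a table of FPKM values for 32479 genes, and how they treated reads with several matches and strand in counting is not given in the sources used here. Total counts were 39510018 to 68694263 per library, and intervals of counting error were not used because replicates set the error.

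The members, lists and tests were chosen with earlier results of these data known. Counts were fitted with edgeR 4.0.16 (R 4.3.3) in a quasi-likelihood model over all 15 libraries with TMM factors, after edgeR's filter on low counts by group. P-values were adjusted by Benjamini-Hochberg over 18136 genes and called under 0.05. CPM (counts scaled to a common total) used the TMM-adjusted library size. The fit was tested on simulated data. Alternatives were other library sizes (RLE, upper quartile, total count, total without Mucl2), no filter, DESeq2 1.42.0, limma 3.58.1 on log2(FPKM + 1) and log2(FPKM + 0.1), fits of 2 groups, a replicate block, each library left out, and SJQYD 1, model 3 and control 2 left out together. The summed member counts as library size were chosen after seeing the data. FPKM for limma had to reach 0.5 in 5 libraries. Nuclear copies were sought with blastn 2.17.0 among annotated transcripts, at 80% identity or more. No 2 libraries of a group had the same counts within sampling noise.

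Values in every library are given for mt-Co1, mt-Cytb, mt-Nd6, both rRNAs, called members, and the largest positive and negative log2 fold change per comparison among members whose higher group reached 5 CPM. Nuclear list genes are named when called, by the smallest adjusted p. Copies are named from 10 counts. Members whose shares or neighbours bear on a comparison were named after their values were seen.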

Additional observations from a re-analysis of the deposited data

Results flagged for a closer look

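Of 93 sets of 5 libraries examined, 10 held a library far from the other 4. Chance gives about 1 in 20 for a single set. The sets share libraries, and the sum of the members is a set beside the members, so they are not independent. No excess over chance is read from the 10. In SJQYD libraries mt-Nd1 had 1566 CPM in SJQYD 5 (884 to 1033 in the other 4) and mt-Ty 2.28 CPM in SJQYD 2 (1.72 to 1.81). Adipocyte markers summed to 308 CPM in SJQYD 5 and at most 34.4 in the other SJQYD libraries, and their part in its mt-Nd1 value was not tested. In model 4 mt-Ta had 8.56 CPM (2.73 to 4.23 in the other model libraries), mt-Tn 10.4 CPM (3.33 to 5.22) and mt-Tl1 3.23 CPM (1.01 to 1.33). In control 3 mt-Tm had 0.886 CPM (0.270 to 0.447 in the other controls).

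In control 2 mt-Cytb had 1429 CPM (2384 to 2669 in the other controls), mt-Atp6 1153 CPM (1808 to 2034) and mt-Co3 1145 CPM (1732 to 1920). The summed members had 11053 CPM there, against 17454 to 19455 in the other controls. The 4 parotid genes, chosen after their values were seen, held 4.17% of all counts in control 2 and at most 0.623% in the other controls, while all 8 parotid markers summed to 110765 CPM there and 125382 in control 3. B cell markers summed to 81.0 CPM in control 2 (at most 12.1 in the other controls) and T cell markers to 73.4 CPM (at most 12.9). The part of these in the values of control 2 was not tested.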

How the results depend on the processing

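Counts of calls differed between scalings. The total count as library size moved the median of all tested genes to 0.63 in SJQYD against control, 0.08 in SJQYD against model and 0.52 in model against control. With that scaling 12 members were called in SJQYD against control (median 0.53), 0 in SJQYD against model and 6 in model against control, among 4681, 43 and 1564 genes in that order of comparisons. Without Mucl2 in the total, 7 members were called in SJQYD against control, among 2492 genes higher and 288 lower of 18136 tested. In SJQYD against model 301 genes were then called. With the summed member counts as library size 1 member was called in SJQYD against control, among 293, 54 and 146 genes. DESeq2 called 6, 1 and 1 members. Of 18136 genes it called 1403 higher and 1407 lower in SJQYD against control, 1058 in SJQYD against model and 1779 in model against control. Limma called 12 and 8 members in SJQYD against control and model against control at either pseudocount, among 3626 and 1447 genes (68 in SJQYD against model) at 1 and 4046 and 1958 (57) at 0.1. Those limma fits tested 12436 genes. Without a filter limma tested 32479 genes and called 9 members in SJQYD against control, among 1910 genes higher and 93 lower. It then called 48 genes in SJQYD against model and 555 in model against control. Fits of 2 groups called 466 genes in model against control. Without SJQYD 1, model 3 and control 2, 186 genes were called in SJQYD against model and 1507 in model against control. The cause of these changes was not tested.

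Respiratory subunits in SJQYD against control numbered 18 higher and 1 lower with the total count, 6 and 5 without Mucl2, 0 and 2 with member sums, and 16 and 1, 17 and 1 and 7 and 1 with limma (pseudocount 1, 0.1, no filter). In model against control they numbered 7 and 1, 1 and 2, and 5 and 1, 9 and 1 and 3 and 1 for the total count, the total without Mucl2 and limma, and 5 were lower without the 3 libraries. DESeq2 called 2 lower in SJQYD against model.

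The share of members was 2.78% in SJQYD, 2.94% in model and 2.56% in control libraries without Mucl2, 2.73%, 2.72% and 1.82% of summed FPKM, and 2.56%, 2.60% and 1.86% with nuclear copies added. Over TMM-adjusted library sizes it was 1.70% in control.

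Leaving out each library gave 1 to 6 called members in SJQYD against control, 0 to 1 in SJQYD against model and 0 to 2 in model against control, among 1240 to 2626, 333 to 527 and 354 to 1799 genes. Medians were -0.17 to 0.06, -0.21 to -0.03 and -0.05 to 0.19. Shares were 1.61% to 1.85% in SJQYD, 1.69% to 1.93% in model and 1.22% to 1.39% in control, and rRNA shares of member FPKM 5.36% to 6.15%, 3.58% to 4.15% and 3.08% to 3.65%. Lower subunits numbered 8 to 23, 0 to 1 and 2 to 6, and higher ones 0.

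Same-numbered libraries did not deviate together (correlations -0.32 to 0.26, with 4 of 15 pairs over 0.1). With a replicate block 896 genes and 0 members were called in model against control, and the number of called members changed in no comparison. Of 756 single-member values per comparison, 0 called values changed sign. Only the 3 called members could lose a call, and 19 calls were lost, all of mt-Rnr2 and mt-Ty in SJQYD against control. mt-Rnr2 was called in 9 of 15 fits without 1 library and 11 of 13 other alternatives, and mt-Ty in 7 of 15 and 10 of 13. Calls were gained for 58 values in SJQYD against control, 2 in SJQYD against model and 23 in model against control. Members with few counts, such as mt-Ty, limit the precision by depth.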
